A study of Mus musculus with 18 samples.

Results

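The genes of the mouse major histocompatibility complex (MHC, called H2 in the mouse) were followed through the hepatocyte libraries of aged, regenerating and Smoothened-deficient livers. Members were all rows of the count table of young and old mice whose name began with H2-, together with B2m, Cd74 and Ciita, and the same Ensembl identifiers were read from the table of Smo-floxed mice. This gave 37 of 31053 genes, of which 25 belong to class I, 11 to class II and 1, H2-Ke6, to neither. Polyadenylated RNA of freshly isolated hepatocytes, obtained by collagenase perfusion, was sequenced in 18 libraries from male mice, all on a C57BL/6J background. By the methods of the study the libraries of a group came from separate mice, so that n counts mice. Old PH and Young PH hepatocytes came from wild-type mice of 24 and 3 months, 48 h after partial hepatectomy (PH), a resection of much of the liver that sets the hepatocytes left behind dividing, and Old and Young hepatocytes came from unoperated (quiescent, 0 h) mice of the same ages (n = 3 each). By the methods of the study the 24-month mice were supplied by the NIA Aged Rodent Colonies and the 3-month wild-type mice by Jackson Laboratories. Smo (-) PH and Smo (-) hepatocytes (n = 2 each) came from Smo flox/flox mice of 2 to 3 months given AAV8-TBG-Cre, a virus that carries Cre under a hepatocyte promoter so that the gene of Smoothened, the signal transducer of the Hedgehog pathway, is deleted in hepatocytes. Smo (+) PH and Smo (+) hepatocytes (n = 1 each) came from Smo flox/flox mice of the same age given the luciferase virus AAV8-TBG-Luc, and PH followed the virus by 7 days in both arms.

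Class I molecules display peptides made inside the cell to CD8 T cells. Each is a heavy chain held by beta-2-microglobulin, the product of B2m, with H2-K1 and H2-D1 as the classical heavy chains and the Q, T and M genes as non-classical ones, and nearly all nucleated cells carry them, hepatocytes at a low level. Class II molecules are dimers of an alpha and a beta chain that show peptides from outside the cell to CD4 T cells, are guided by the invariant chain Cd74, are loaded with the help of H2-DM, and are switched on by the transactivator Ciita, mostly in B cells, dendritic cells and macrophages. Mice of the C57BL/6 haplotype have a defective H2-Ea gene, so that H2-Eb1 is transcribed without its partner chain.

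The promoters of the members the results turn on are shown first, because the Y box, the kappa B element and the interferon response element are the textbook control elements of these genes. The 250 bases before the annotated start were taken from RefSeq (GRCm38.p6, the same assembly as mm10), are printed 5′ to 3′ on the strand of the gene, and have in capitals 3 motifs searched on both strands, namely GATTGG (the core of the Y box), a kappa B core of 10 bases (the first run of capitals in H2-K1) and GAANNGAAA (an interferon response core). None of the capital runs overlap. The class I set shows the classical heavy chains, H2-Q10, which is secreted by hepatocytes, and B2m.
H2-K1, chr17:34000334-34000583, minus strand: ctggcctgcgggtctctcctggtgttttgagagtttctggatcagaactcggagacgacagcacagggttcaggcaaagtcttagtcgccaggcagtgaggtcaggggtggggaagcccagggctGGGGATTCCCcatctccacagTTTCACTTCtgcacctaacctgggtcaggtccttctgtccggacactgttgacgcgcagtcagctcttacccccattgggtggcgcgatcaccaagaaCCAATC
H2-D1, chr17:35262844-35263093, plus strand: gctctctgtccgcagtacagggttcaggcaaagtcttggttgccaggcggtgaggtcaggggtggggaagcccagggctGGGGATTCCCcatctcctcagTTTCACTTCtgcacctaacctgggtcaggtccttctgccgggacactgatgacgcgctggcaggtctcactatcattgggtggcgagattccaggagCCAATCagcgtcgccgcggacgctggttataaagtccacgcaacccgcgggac
H2-Q10, chr17:35469839-35470088, plus strand: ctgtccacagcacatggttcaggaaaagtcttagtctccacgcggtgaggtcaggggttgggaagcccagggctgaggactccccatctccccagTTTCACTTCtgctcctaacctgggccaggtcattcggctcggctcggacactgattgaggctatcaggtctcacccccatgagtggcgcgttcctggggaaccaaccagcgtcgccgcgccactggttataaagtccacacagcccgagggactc
B2m, chr2:122147437-122147686, plus strand: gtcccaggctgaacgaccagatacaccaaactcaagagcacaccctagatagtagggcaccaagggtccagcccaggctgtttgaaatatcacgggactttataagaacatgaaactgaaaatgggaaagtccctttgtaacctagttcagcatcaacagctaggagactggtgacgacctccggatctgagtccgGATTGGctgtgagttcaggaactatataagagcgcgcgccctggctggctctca
The class II set shows an alpha chain, a beta chain and the DM beta chain whose response to PH differed with age.
H2-Aa, chr17:34287824-34288073, minus strand: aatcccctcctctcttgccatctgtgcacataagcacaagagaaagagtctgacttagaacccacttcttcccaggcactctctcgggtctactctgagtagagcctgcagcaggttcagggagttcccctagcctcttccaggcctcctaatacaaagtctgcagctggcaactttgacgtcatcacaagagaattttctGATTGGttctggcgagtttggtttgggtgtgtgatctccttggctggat
H2-Eb1, chr17:34305617-34305866, plus strand: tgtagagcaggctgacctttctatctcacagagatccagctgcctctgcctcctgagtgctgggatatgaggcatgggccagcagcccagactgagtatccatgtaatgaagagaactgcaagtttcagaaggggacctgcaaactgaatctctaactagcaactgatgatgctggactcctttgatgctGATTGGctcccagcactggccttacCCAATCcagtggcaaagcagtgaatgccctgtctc
H2-DMb1, chr17:34152941-34153190, plus strand: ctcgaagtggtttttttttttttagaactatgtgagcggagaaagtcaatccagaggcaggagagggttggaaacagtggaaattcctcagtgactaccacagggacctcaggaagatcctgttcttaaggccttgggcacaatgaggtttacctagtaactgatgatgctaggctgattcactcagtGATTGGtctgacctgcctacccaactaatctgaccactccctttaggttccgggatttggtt
GATTGG was found in all 8 class II promoters searched and in 17 of the 23 class I promoters, against 14.6% of all 32851 promoters of this length. The class II promoters leave out H2-Ab1 and Ciita, which had no entry, and Cd74, which was not searched. The class I promoters leave out H2-Q1 and H2-T24, which had no entry. H2-K1 and H2-D1 carried all 3 motifs. The kappa B core was found in 4 class I promoters (H2-K1, H2-D1, H2-Q6 and H2-Q7), in none of the 8 class II promoters searched, and in 0.0852% of all promoters. GAANNGAAA was found in 8 class I promoters, in none of the 8 class II promoters searched, and in 6.31% of all promoters. The H2-Q10 window held GAANNGAAA and neither of the other motifs. GAANNGAAA fixes the spacing of the interferon core, so that a run with wider spacing in the B2m window was not marked. A match of letters is a description of the sequence and not a binding site, and a missing match does not show that an element is absent.

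Read pairs counted in genes came to between 17089525 and 23073217 per library in Old and Old PH and between 31729517 and 36646939 in Young and Young PH. In Smo-floxed mice they came to between 16835686 and 19151731. Levels are counts scaled to library size (CPM) within each table, so that no test crosses the tables. The share of counted pairs that fell outside annotated genes was 2.03% to 3.74% in Old and Old PH libraries, against 25.2% to 33.9% in Young and Young PH libraries. The nuclear RNA Malat1 had 18.2 to 165 CPM in Old and Old PH libraries, against 3487 to 6004 CPM in Young and Young PH libraries. These differences in depth and library composition, and the different suppliers of the mice, cannot be told apart from age. Smo itself had 1.42 and 3.29 CPM in Smo (-), 1.51 and 1.20 CPM in Smo (-) PH, 6.17 CPM in Smo (+) and 11 CPM in Smo (+) PH hepatocytes, and was lower in the deleted libraries at both times. The lone Smo (+) library at 0 h stood apart, with 22.5% of its pairs in genes of the mitochondrial genome and 3546 CPM of the nuclear RNA Malat1, against 3.32% to 6.85% and 123 to 682 CPM in the other libraries of Smo-floxed mice. Hepatocyte markers (7 genes) summed to between 44271 and 181562 CPM, and markers of macrophages (11 genes, Clec4f, Vsig4 and Cd5l among them) to between 36.6 and 682 CPM, with none of the 11 at 0 in all libraries of any group. The hepatocyte sum was 128949 to 181562 CPM in Old and 78110 to 98493 CPM in Young libraries. In Old PH it was 60278 to 84576 CPM, and in Young PH 44271 to 52479 CPM.

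Class I transcripts were abundant in all 8 groups, and their sum exceeded that of class II transcripts in each. The class II sum was highest in the Smo (+) library, at 720 CPM. The summed class I level was 5485 to 6431 CPM in Old PH and 2569 to 2733 CPM in Young PH, and 9668 to 11921 CPM in Old and 4472 to 5006 CPM in Young hepatocytes. In Smo-floxed mice it was 4033 and 4096 CPM in Smo (-) PH and 3557 CPM in Smo (+) PH, and 4517 and 4846 CPM in Smo (-) and 6579 CPM in Smo (+) hepatocytes. Per length of transcript, B2m ranked first in every group, at 2770 RPKM (CPM per kilobase of exon) in Old and 1647 RPKM in Young hepatocytes on average. In Old hepatocytes H2-K1 (975 ± 151 RPKM, SD) and H2-Q10 (771 ± 55.6 RPKM) followed, ahead of H2-D1 (416 ± 45.4 RPKM), whereas in Young hepatocytes H2-Q10 (440 ± 4.70 RPKM) stood above H2-K1 (298 ± 23 RPKM) and H2-D1 (115 ± 11.9 RPKM). In the Smo (+) library H2-D1 (694 RPKM) was second, ahead of H2-K1 (443 RPKM) and H2-Q10 (400 RPKM).

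Of the 25 class I members, 12 passed the filter on low counts in the wild-type table and 13 in the Smo table, which adds H2-Q2. The remaining 12 (H2-M1, H2-M2, H2-M5, H2-M9, H2-M11, the 6 H2-M10 genes and H2-T3) had at most 7 counts in any library, and 6 of them had none in all 18. Of the 11 class II members, 7 and 8 passed, the Smo table adding H2-DMb2, and H2-Oa, H2-Ob and H2-Eb2 passed in neither, with at most 10 counts. Since a gene can pass because it is high in 1 group, the counts below describe the tested members and not all members.

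Old hepatocytes of the quiescent liver held more class I RNA than Young ones. In Old against Young hepatocytes 11 of 12 tested class I members rose and 1 fell (edgeR's quasi-likelihood test, Benjamini-Hochberg adjusted p under 0.05). Among all 14554 genes tested 63% were called, 29.3% as higher and 33.7% as lower. The median log2 fold change was 1.74 over the class I members and -0.05 over all genes. Of the 7 hepatocyte markers 2 were higher and 3 lower, with a median log2 fold change of 0.46. The part of hepatocyte content in the class I values was not tested. H2-K1 had 3377, 2608 and 2612 CPM in Old hepatocytes, against 798, 908 and 920 CPM in Young hepatocytes, and rose by 1.71 ± 0.16 on the log2 scale (SE, adjusted p = 7.19e-07). H2-D1 had 1207, 987 and 1027 CPM in Old and 264, 324 and 301 CPM in Young hepatocytes (log2 fold change 1.86 ± 0.15, adjusted p = 3.07e-07). Every Old library lay above every Young library for both classical heavy chains, by about 3-fold on average (3.27-fold for H2-K1 and 3.62-fold for H2-D1). The share of all genes whose libraries separate in this way was not computed. This holds for every later statement on overlap, which therefore describes the values only.

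B2m, the shared light chain, had 2882, 2189 and 2076 CPM in Old hepatocytes, against 1301, 1268 and 1682 CPM in Young hepatocytes, a smaller rise (0.75 ± 0.20, adjusted p = 0.00436). H2-Q10 had 3627, 3170 and 3262 CPM in Old and 1923, 1928 and 1890 CPM in Young hepatocytes (0.81 ± 0.17, adjusted p = 0.000972). Neither gene's groups overlapped. Among the other non-classical genes, H2-T23, which encodes the Qa-1 ligand of the inhibitory receptor NKG2A on natural killer cells, had 464, 392 and 401 CPM in Old and 84.4, 105 and 88.1 CPM in Young hepatocytes (2.18 ± 0.15, adjusted p = 7.16e-08). H2-Q1 showed the largest log2 fold change of the class (3.66 ± 0.45), at 8.14, 8.86 and 20.3 CPM in Old and 0.807, 0.412 and 1.69 CPM in Young hepatocytes. H2-Q4, H2-Q6, H2-Q7, H2-T22, a ligand of gamma-delta T cells, and H2-M3, which binds formylated peptides, rose with log2 fold changes between 1.18 and 1.97. H2-T24 was the member that fell (-1.23 ± 0.50, adjusted p = 0.0461), with 0.359, 3.04 and 2.66 CPM in Old and 4.29, 6.21 and 3.70 CPM in Young hepatocytes. Its call was lost without Old 1, without Old 3 or without any single Young library (adjusted p 0.0519 to 0.151), and H2-T22, H2-T23 and H2-T24 lie over another annotated gene, A930015D03Rik, whose reads could not be separated here.

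**Figure D1:**
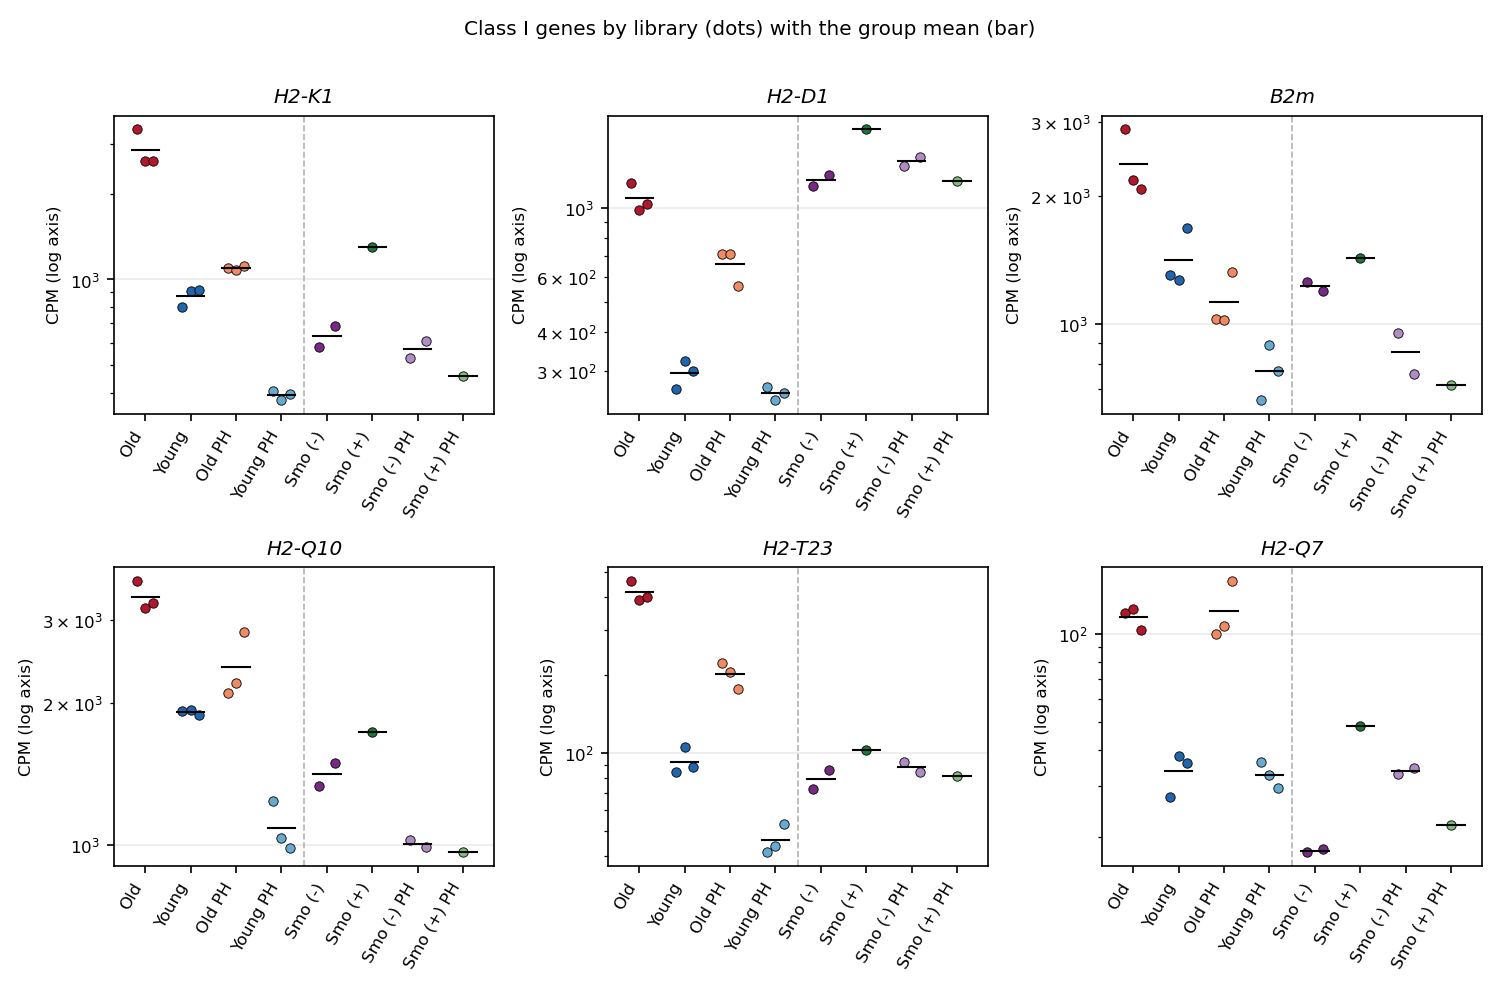
Levels of 6 class I genes, in CPM on a log axis, for the 8 groups on the horizontal axis, with 1 dot per library and a bar at the group mean. For H2-K1 the Old libraries sit between 2608 and 3377 CPM and the Young libraries between 798 and 920 CPM, and both fall after PH. H2-K1 and H2-Q7 both separate Old from Young mice at both times, and H2-Q7 was called after PH at neither age. The dashed line parts the separately scaled tables.

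The age difference was also present in regenerating hepatocytes. In Old PH against Young PH hepatocytes 11 class I members were higher and 1, H2-T24, was lower, against 62.1% of all genes called (29.7% higher and 32.4% lower), with medians of 1.59 for the class and -0.07 for all genes. H2-K1 had 1094, 1077 and 1111 CPM in Old PH and 405, 375 and 396 CPM in Young PH hepatocytes (1.48 ± 0.15, adjusted p = 2.62e-06), and H2-D1 had 712, 713 and 564 CPM in Old PH and 267, 242 and 255 CPM in Young PH hepatocytes (1.38 ± 0.15, adjusted p = 3.94e-06). The libraries of neither gene overlapped between the ages. H2-Q1 (3.22 ± 0.42), H2-Q4 (2.18 ± 0.17) and H2-T23 (2.14 ± 0.15) differed most. B2m had 1022, 1022 and 1327 CPM in Old PH and 658, 891 and 772 CPM in Young PH hepatocytes (0.54 ± 0.20, adjusted p = 0.0281), a call that was lost without Young PH 1, Young PH 3 or Old PH 3 (adjusted p 0.0618 to 0.110). The call of H2-T24 was lost without Old PH 1 (adjusted p = 0.0561).

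PH was followed by a fall of part of class I. In Old PH against Old hepatocytes 5 of 12 members fell and none rose (0 at an unadjusted p under 0.05, and 0 by DESeq2), with 37.6% of all genes called, 15.1% as lower. Hepatocyte markers fell too, 5 of 7 being called lower and none higher. Their median log2 fold change was -1.14, against -0.52 over the class I members. The part of hepatocyte content in the class I values was not tested. H2-K1 fell by 1.39 ± 0.15 on the log2 scale (adjusted p = 1.61e-05), B2m by 1.08 ± 0.20, H2-T23 by 1.05 ± 0.15, H2-D1 by 0.70 ± 0.15 and H2-Q10 by 0.50 ± 0.17, the last with 2102, 2208 and 2824 CPM in Old PH and 3627, 3170 and 3262 CPM in Old hepatocytes. H2-Q10's call was lost without Old PH 1 or Old PH 2 (adjusted p 0.132 and 0.123), its adjusted p was 0.0502 with the replicate number as a block and 0.0555 with Old 1 as the only Old library. Without Old 1, H2-M3 (-0.87, adjusted p = 0.0315) and H2-T24 (-1.34, adjusted p = 0.0125) were called as lower too.

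In Young PH against Young hepatocytes 5 members fell and none rose (0 at an unadjusted p under 0.05, and 0 by DESeq2), with 34.2% of all genes called, 16.4% as lower. Here too 5 of 7 hepatocyte markers were called lower and none higher. Their median log2 fold change was -0.91, against -0.33 over the class I members. The part of hepatocyte content was again not tested. H2-K1 fell by 1.16 ± 0.15, H2-T23 by 1.01 ± 0.15, B2m by 0.87 ± 0.20, H2-Q10 by 0.82 ± 0.17 and H2-Q4 by 0.55 ± 0.17 on the log2 scale, and H2-Q4's call was lost without Young 2 or Young PH 3 (adjusted p 0.0912 and 0.0984). H2-D1 was not called in Young mice (-0.22 ± 0.15, adjusted p = 0.282), and its libraries overlapped between Young PH and Young hepatocytes. H2-Q6, H2-Q7 and H2-T22 had log2 fold changes between -0.09 and 0.43 after PH at both ages and passed the test at neither. The response of Old and Young mice to PH differed for no class I member (edgeR, 1 of 12 lower at an unadjusted p under 0.05, and 0 by DESeq2 after adjustment), with 3.26% of all genes called, 0.983% as lower. H2-K1 illustrates this, with a difference of responses of -0.23 ± 0.21 (adjusted p = 0.587).

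Class II transcripts were low beside those of class I, and in Old against Young hepatocytes they changed by a larger median factor. Their summed level was 127, 141 and 371 CPM in Old 1, 2 and 3, against 29.5 to 47.0 CPM in Young hepatocytes. In Old against Young hepatocytes 6 of 7 tested members rose and none fell (0 at an unadjusted p under 0.05, and 0 by DESeq2), with a median log2 fold change of 2.48. Among all genes 63% were called, 29.3% as higher and 33.7% as lower. The alpha chain H2-Aa had 22.5, 19.0 and 55.8 CPM in Old and 4.03, 4.15 and 5.79 CPM in Young hepatocytes (2.80 ± 0.36, adjusted p = 1.45e-05). The beta chain H2-Ab1 had 24.1, 17.3 and 47.1 CPM in Old and 5.62, 6.46 and 10.5 CPM in Young hepatocytes (1.97 ± 0.34, adjusted p = 0.000222), and H2-Eb1 had 21.7, 16.0 and 40.7 CPM in Old and 1.94, 2.47 and 3.28 CPM in Young hepatocytes (3.34 ± 0.32, adjusted p = 1.03e-06). Old 3 was the highest library and the ages did not overlap for any of these chains.

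Cd74, the invariant chain, had 53.0, 81.6 and 211 CPM in Old and 16.1, 21.2 and 24.5 CPM in Young hepatocytes (2.48 ± 0.41, adjusted p = 0.000124). H2-DMb1 had 2.39, 3.17 and 7.00 CPM in Old and 0.452, 0.507 and 0.537 CPM in Young hepatocytes (3.06 ± 0.45, adjusted p = 5.12e-05), although 4.71% of its windows of 1 read length also occur in H2-DMb2. H2-DMa rose less firmly (1.91 ± 0.61, adjusted p = 0.0137) and lost its call without Old 3 (adjusted p = 0.114) or without Young 1 (adjusted p = 0.0566). It overlaps 4 other annotated genes, Brd2 among them. Ciita, the transactivator of the class, was not called (0.56 ± 0.60, adjusted p = 0.437), with 1.08, 0.992 and 1.85 CPM in Old and 0.678, 0.855 and 1.13 CPM in Young hepatocytes, so that its libraries overlapped.

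Macrophage markers moved with this comparison. All 11 were higher in Old against Young hepatocytes, where 29.3% of all genes were called higher. Their summed level was 128, 589 and 574 CPM in Old 1, 2 and 3 and 78.4 to 119 CPM in Young hepatocytes. B cell markers (6 genes) summed to 1.14 to 3.97 CPM in Old and 0.475 to 0.807 CPM in Young hepatocytes, and dendritic cell markers (7 genes) to 3.23 to 5.96 CPM in Old and 6.49 to 9.15 CPM in Young hepatocytes. The macrophage sum of Old 1, 128 CPM, lay above the highest Young sum of 119 CPM, and its class II sum was 127 CPM, against at most 47.0 CPM in Young libraries. B cell and plasma cell markers summed to 1.14 and 2.81 CPM in Old 1, against at most 0.807 and 0.936 CPM in Young libraries. Its dendritic cell markers (3.23 CPM), T cell markers (2.21 CPM) and the leukocyte gene Ptprc (1.20 CPM) lay below every Young library. In a fit with Old 1 as the only Old library, chosen after the data were seen, the log2 fold changes were 2.32 for H2-Aa, 1.73 for H2-Ab1, 3.13 for H2-Eb1, 1.42 for Cd74, 2.30 for H2-DMb1 and 0.54 for H2-DMa. That fit has no spread of its own in the Old group and borrows it from the other groups, and H2-DMa was the one of these 6 that it did not call (adjusted p = 0.550). The part of macrophages, B cells or plasma cells in these values was not tested. In bulk RNA a larger number of cells of a type cannot be told apart from more RNA per cell.

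**Figure D2:**
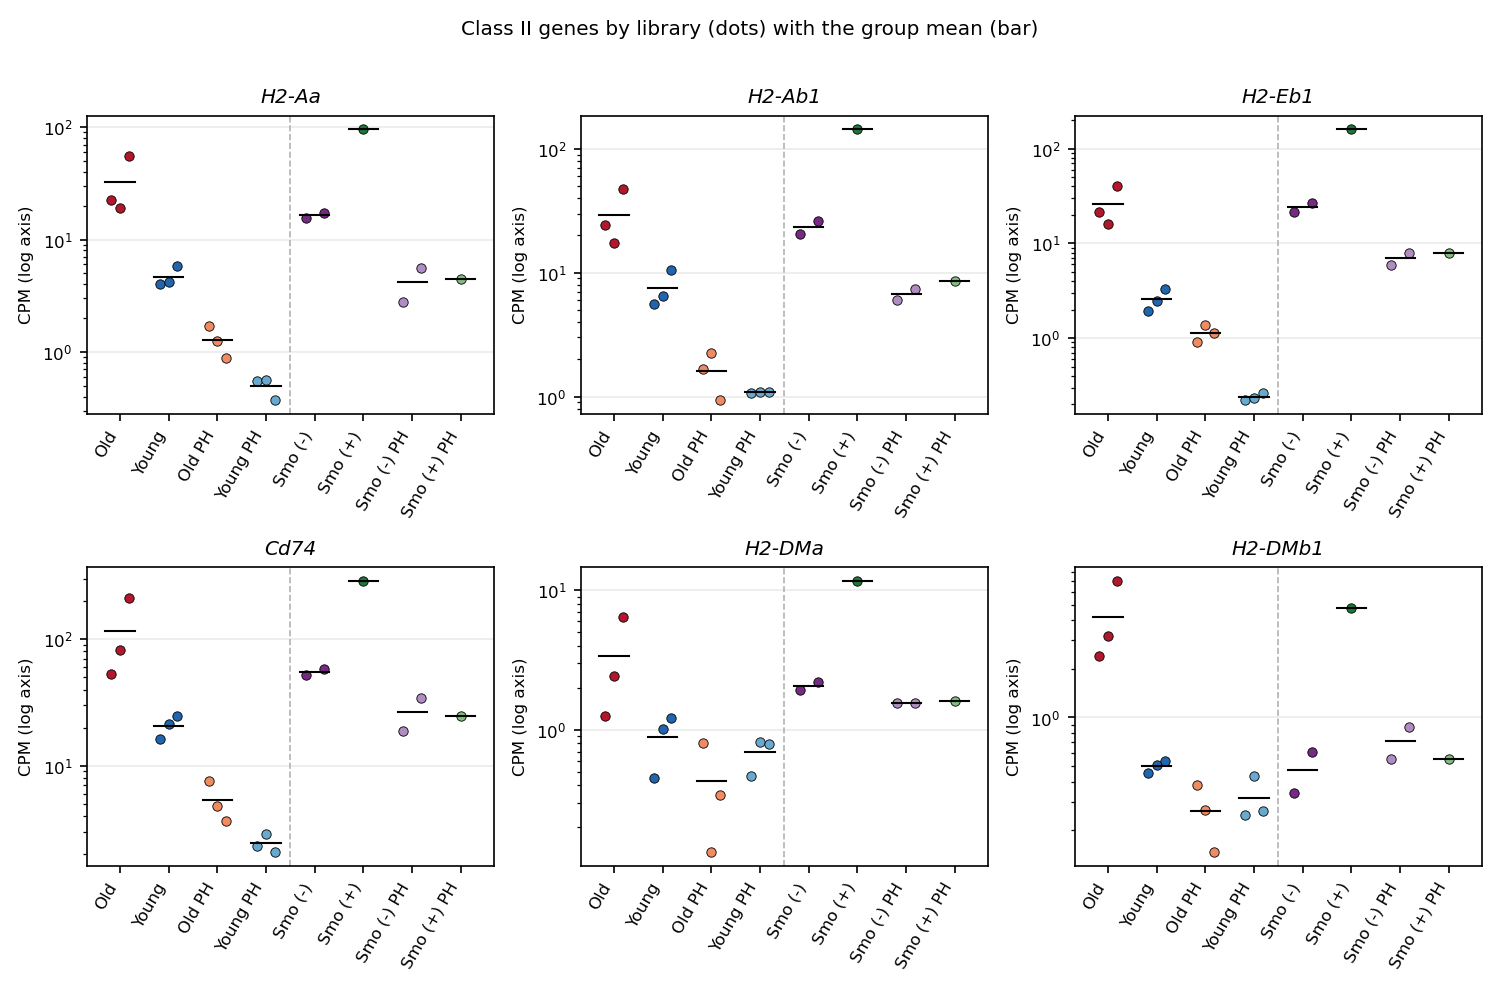
Levels of 6 class II genes, in CPM on a log axis, for the 8 groups on the horizontal axis, with 1 dot per library and a bar at the group mean. H2-Eb1 stands at 16.0 to 40.7 CPM in Old and at 1.94 to 3.28 CPM in Young hepatocytes, and in all groups of operated mice below its quiescent counterpart. The dashed line parts the separately scaled tables.

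At 48 h after PH the called share of class II was close to that of all genes. In Old PH against Young PH hepatocytes 3 of 7 members were higher (H2-Eb1, H2-Aa and Cd74), 1 was lower (Ciita) and 3 were not called, with a median log2 fold change of 0.59. That is 57.1% of the tested members, against 62.1% of all genes called (29.7% higher and 32.4% lower). H2-Eb1 had 0.902, 1.38 and 1.13 CPM in Old PH and 0.220, 0.231 and 0.264 CPM in Young PH hepatocytes (2.23 ± 0.45, adjusted p = 0.000717). H2-Aa had 1.71, 1.24 and 0.881 CPM in Old PH and 0.550, 0.566 and 0.370 CPM in Young PH hepatocytes (1.36 ± 0.49, adjusted p = 0.0266), and Cd74 had 7.50, 4.75 and 3.62 CPM in Old PH and 2.31, 2.88 and 2.06 CPM in Young PH hepatocytes (1.13 ± 0.46, adjusted p = 0.0458). None of these 3 genes overlapped between the ages, but only H2-Eb1 kept its call with each library left out. Without Young PH 3 or Old PH 1, H2-Aa and Cd74 both lost theirs (adjusted p 0.0800 to 0.192), as both did without Old PH 2 (0.0518 and 0.0624), and Cd74 also without Young PH 1 or Young PH 2 (0.0981 and 0.0564) and with a gene-length correction (0.221). Ciita had 0.285 CPM in Old PH 1 and no count in Old PH 2 and Old PH 3, against 0.495, 0.437 and 1 CPM in Young PH hepatocytes (-2.72 ± 0.82, adjusted p = 0.0109). With 6 counts in all in Old PH, the size of that fold change depends on the fit.

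PH was followed by lower class II levels at both ages. The summed class II level was 7.29 to 13.3 CPM in Old PH, against 127 to 371 CPM in Old hepatocytes. All 7 tested members fell, with 37.6% of all genes called, 15.1% as lower. The median log2 fold change was -4.18 over the class II members and 0.08 over all genes. H2-Aa fell by 4.66 ± 0.41 (adjusted p = 2.28e-06), H2-Eb1 by 4.52 ± 0.35, Cd74 by 4.44 ± 0.46 and H2-Ab1 by 4.18 ± 0.40 on the log2 scale. No Old PH library reached an Old library for any of the 4. Ciita (-3.74 ± 0.82), H2-DMb1 (-3.96 ± 0.50) and H2-DMa (-2.98 ± 0.68) fell as well, and H2-DMa lost its call with Old 1 as the only Old library (adjusted p = 0.156). Of the 11 macrophage markers 10 fell in this comparison, to a sum of 36.6 to 106 CPM in Old PH, against 128 to 589 CPM in Old hepatocytes. Both tested B cell markers fell too (Cd22 and Cd79a, with sums over the 6 listed genes of 0 to 0.522 CPM in Old PH and 1.14 to 3.97 CPM in Old hepatocytes), as did all 6 markers of sinusoidal endothelium (28.3 to 38.0 CPM in Old PH and 64.5 to 157 CPM in Old hepatocytes), 4 of 6 stellate cell markers and the leukocyte gene Ptprc (-2.13 ± 0.53). The part of these cells in the class II values was not tested. Old PH 1 and Old PH 2, at 102 and 106 CPM of macrophage markers, had 13.3 and 10.1 CPM of class II, and Old 1, at 128 CPM, had 127 CPM. B cell markers summed to 0.522 CPM in Old PH 1, 0 CPM in Old PH 2 and 1.14 CPM in Old 1.

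In Young mice the sum was 5.42 to 6.51 CPM in Young PH, against 29.5 to 47.0 CPM in Young hepatocytes. Here 4 of 7 members fell, and none rose (0 at an unadjusted p under 0.05, and 0 by DESeq2), with 34.2% of all genes called, 16.4% as lower. The members that fell are named next. They were H2-Eb1 (-3.40 ± 0.41, adjusted p = 2.53e-05), H2-Aa (-3.22 ± 0.43), Cd74 (-3.09 ± 0.44) and H2-Ab1 (-2.80 ± 0.39), while H2-DMa, H2-DMb1 and Ciita had log2 fold changes of -0.36, -0.65 and -0.46 and were not called. Of 11 macrophage markers 1 was higher and none lower in Young PH, with a sum of 110 to 134 CPM in Young PH and 78.4 to 119 CPM in Young hepatocytes. Markers of sinusoidal endothelium fell, 4 of 6 being called, to a sum of 69.6 to 80.1 CPM in Young PH, against 108 to 179 CPM in Young hepatocytes, as did 1 of 6 stellate cell markers. Neither tested B cell marker was called, and Ptprc was not (-0.09 ± 0.49). The part of endothelial cells in the class II values was not tested.

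The response to PH differed with age for 1 class II member, H2-DMb1 (-3.31 ± 0.70, adjusted p = 0.0267), and Ciita was called as well by DESeq2 (-3.39, adjusted p = 0.0131) and, by edgeR, without Old PH 1 (adjusted p = 0.0215), as was H2-DMa without Old 1 (adjusted p = 0.0459). H2-DMb1 had 0.380, 0.266 and 0.147 CPM in Old PH, against 2.39, 3.17 and 7.00 CPM in Old hepatocytes, and 0.247, 0.437 and 0.264 CPM in Young PH, against 0.452, 0.507 and 0.537 CPM in Young hepatocytes. These values rest on 3 to 17 counts per library after PH. Leaving out Old PH 2, Old PH 3, Young PH 2, Young PH 3 or any Young library ended the call (adjusted p 0.0513 to 0.0875). The 6 other class II members had differences of response between -3.28 and -1.11, with 5 of them at an unadjusted p under 0.05 and none past the adjustment. Among all genes 3.26% were called in the difference of responses, 0.983% as lower.

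**Figure D3:**
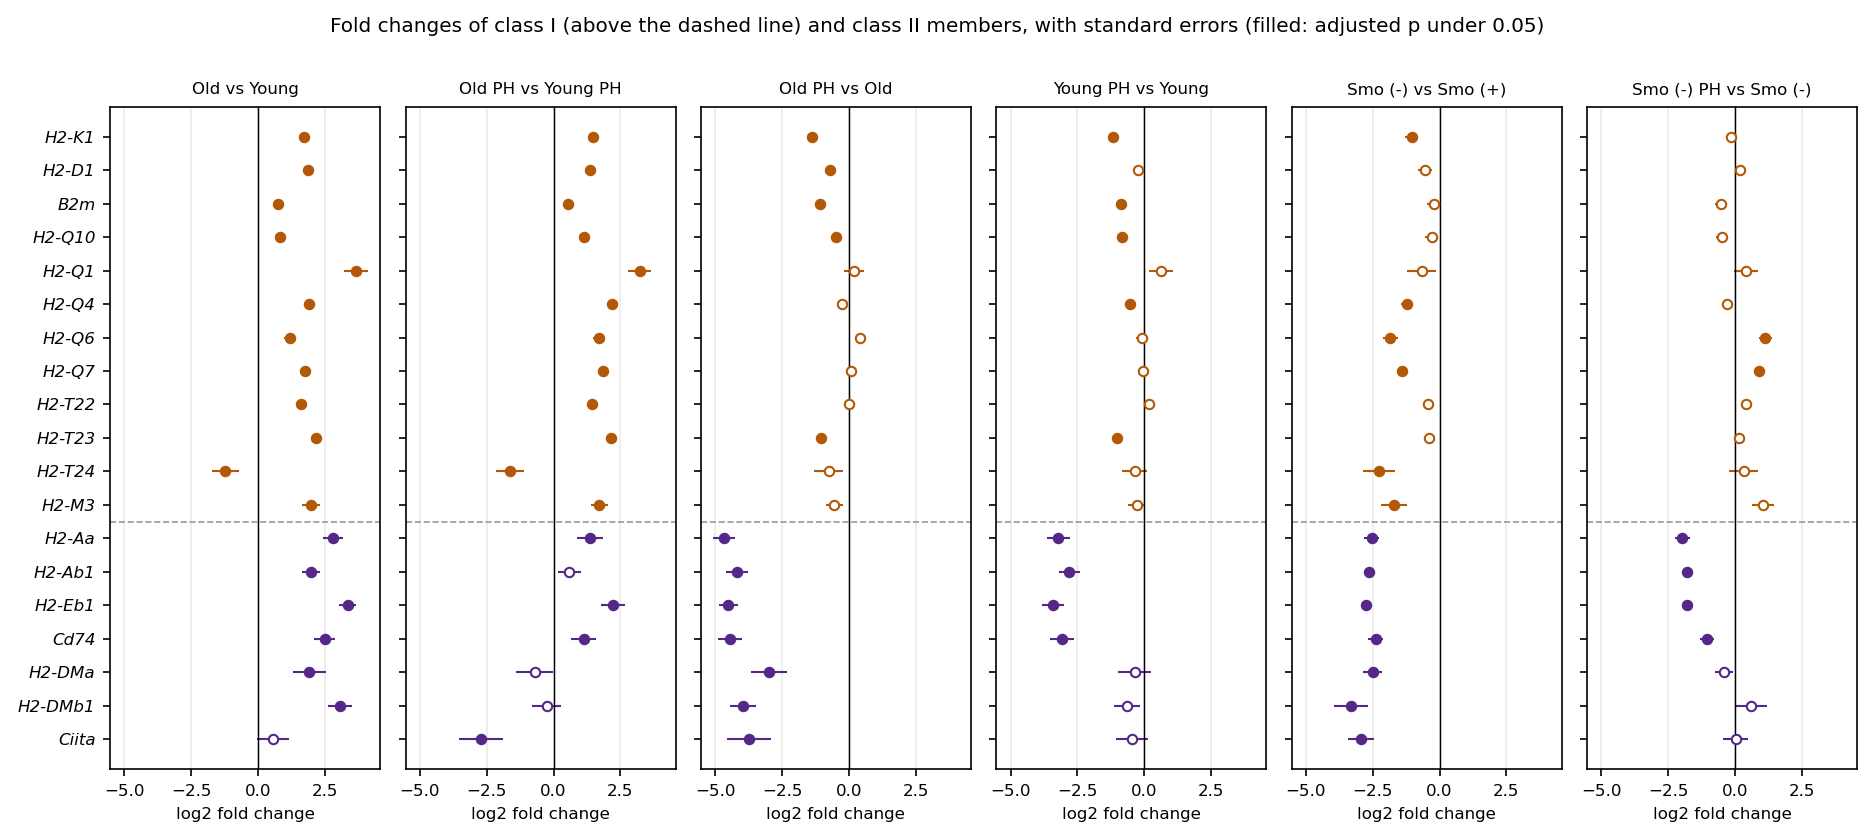
Log2 fold changes of 12 class I members (above the dashed line) and 7 class II members with standard errors, 1 panel per comparison, filled where the adjusted p is under 0.05. After PH class II members lie between -4.66 and -2.98 in Old mice, and class I members between -1.39 and 0.43.

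In quiescent Smo-floxed mice the MHC genes were lower in Smo (-) than in Smo (+) hepatocytes. Of 13 tested class I members 6 were lower, and of 8 tested class II members all 8 were lower, with 27.4% of all 13654 genes called, 13.5% as lower. No member of either class was higher (0 at an unadjusted p under 0.05, and 0 by DESeq2). The median log2 fold change was -1.04 for class I and -2.68 for class II, against -0.0012 for all genes. H2-K1 had 579 and 687 CPM in Smo (-) hepatocytes, against 1301 CPM in the Smo (+) library (-1.04 ± 0.24, adjusted p = 0.0140). H2-D1 was not called by edgeR (-0.54 ± 0.25, adjusted p = 0.134) and was called by DESeq2 (adjusted p = 0.0339), with 1177 and 1280 CPM in Smo (-) and 1790 CPM in Smo (+). The other class I members that were lower were H2-T24 (-2.28), H2-Q6 (-1.84), H2-M3 (-1.71), H2-Q7 (-1.42) and H2-Q4 (-1.23), and H2-M3 lost its call with DESeq2 (adjusted p = 0.0804) and without Smo (-) 1 (0.0730).

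Among class II members H2-Aa had 15.5 and 17.4 CPM in Smo (-) hepatocytes and 95.7 CPM in Smo (+) (-2.54 ± 0.29, adjusted p = 0.00246), and H2-Ab1 had 20.5 and 26.0 CPM in Smo (-) and 144 CPM in Smo (+) (-2.63 ± 0.20). H2-Eb1 had 21.2 and 26.8 CPM in Smo (-) and 160 CPM in Smo (+) (-2.74 ± 0.21), and Ciita had 0.849 and 0.853 CPM in Smo (-) and 6.56 CPM in Smo (+) (-2.94 ± 0.48). Cd74, H2-DMa, H2-DMb1 and H2-DMb2 had log2 fold changes between -3.31 and -2.39. All of these rest on the lone Smo (+) library, which is assumed to vary like the others and which had the highest summed class II level of all 18 libraries (720 CPM). All 11 macrophage markers were lower in this comparison too, summing to 131 and 188 CPM in Smo (-) and 682 CPM in Smo (+), as were all 6 markers of sinusoidal endothelium (99.6 and 211 CPM in Smo (-) and 610 CPM in Smo (+)), 3 of 6 stellate cell markers, 3 of 5 cholangiocyte markers and Ptprc. Another cholangiocyte marker, 1 of the 5, was called higher. The part of these cells, or of the composition of that library, in the MHC values was not tested.

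At 48 h after PH no MHC member was called between Smo (-) PH (n = 2) and Smo (+) PH (n = 1) hepatocytes. Of all genes 0.125% were called (0.0366% higher and 0.0879% lower). With 1 control library and 2 residual degrees of freedom, a missing call does not show that levels were equal. By edgeR 1 class I member, H2-Q7, was higher at an unadjusted p under 0.05 and no class II member was, and DESeq2 called none after adjustment. Log2 fold changes ran from -1.0 to 0.62 in class I and from -0.46 to 0.38 in class II. H2-K1 had 531 and 610 CPM in Smo (-) PH and 456 CPM in Smo (+) PH (0.32 ± 0.25), and H2-Ab1 had 6.04 and 7.42 CPM in Smo (-) PH and 8.55 CPM in Smo (+) PH (-0.34 ± 0.24). The macrophage sums lay close together here, at 388 and 450 CPM in Smo (-) PH and 459 CPM in Smo (+) PH. Whether the effect of Smo deletion differed between the times was not tested.

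In Smo (-) PH against Smo (-) hepatocytes class II fell for 4 of 8 members, with 30.2% of all genes called, 14.2% as lower and 16% as higher. H2-Aa had 2.77 and 5.57 CPM in Smo (-) PH and 15.5 and 17.4 CPM in Smo (-) (-1.97 ± 0.28, adjusted p = 0.000849), H2-Eb1 fell by 1.79 ± 0.20 and H2-Ab1 by 1.79 ± 0.19. Cd74 fell by 1.05 ± 0.25, and its call was lost without Smo (-) PH 1 (adjusted p = 0.0820). All 11 macrophage markers rose in the same comparison, to 388 and 450 CPM in Smo (-) PH, against 131 and 188 CPM in Smo (-), so that class II and these markers moved in opposite directions. In class I 2 of 13 members rose, 15.4%, against 16% of all genes called higher. They were H2-Q6 (1.13 ± 0.24) and H2-Q7 (0.91 ± 0.15), genes that share 5.99% and 5.90% of their windows of 1 read length with other genes, and H2-K1 (-0.15 ± 0.20) and H2-D1 (0.20 ± 0.21) were not called. None of the class I members fell by edgeR (2 at an unadjusted p under 0.05), whereas DESeq2 called B2m (-0.52, adjusted p = 0.0236) and H2-Q10 (-0.49, adjusted p = 0.0200). The Smo (+) libraries, 1 at each time and therefore not tested, had 49.5 CPM of class II in Smo (+) PH and 720 CPM in Smo (+).

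**Figure D4:**
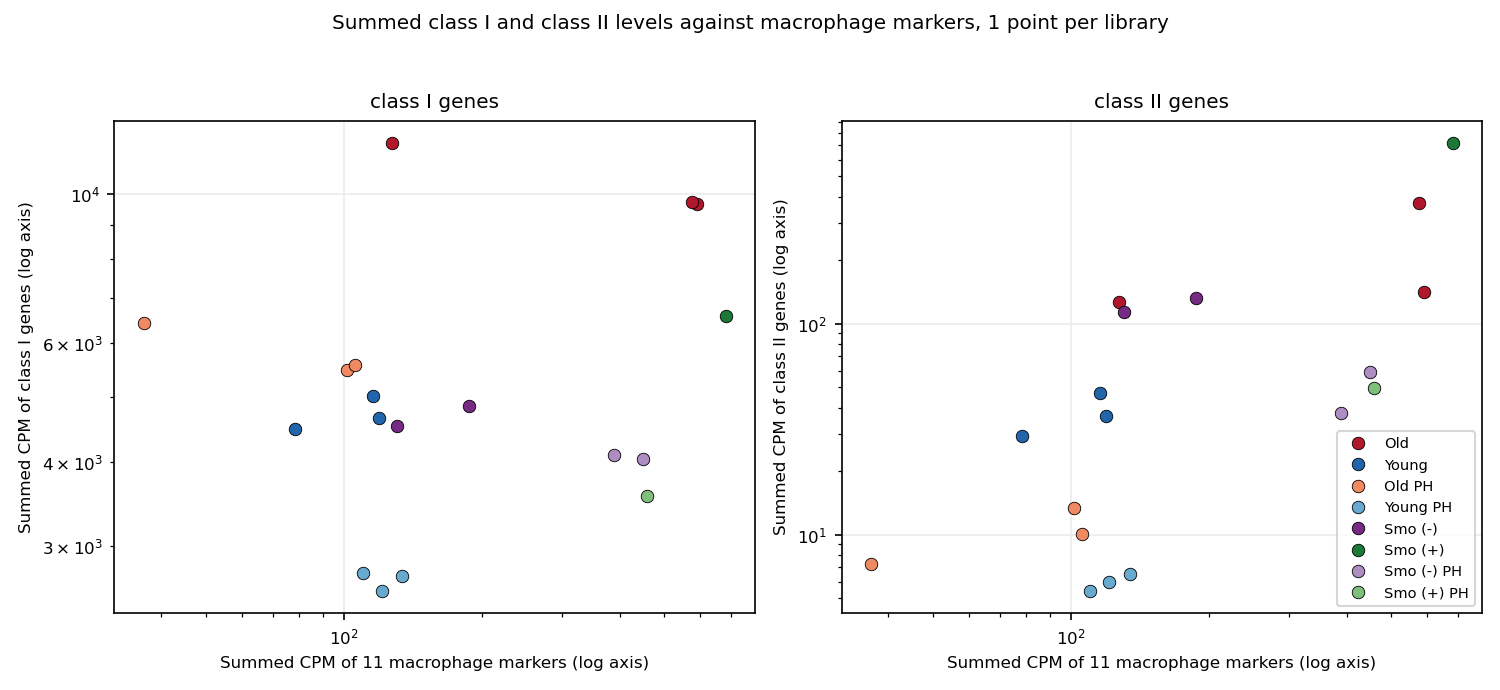
Summed level of class I genes (left) and class II genes (right) against the summed level of 11 macrophage markers, both in CPM on log axes, with 1 point per library coloured by group. At marker sums of 388 to 459 CPM the operated Smo-floxed mice hold 37.7 to 59.2 CPM of class II, and Old 1 holds 127 CPM at a marker sum of 128 CPM. The part of macrophages or of other cells in these levels was not tested.

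The members did not keep fixed proportions. The ratio of H2-D1 to H2-K1 counts within a library, 2 genes whose reference transcripts share at most 1.35% of windows of 1 read length with any other gene, was 0.507 to 0.662 in Old PH and 0.644 to 0.659 in Young PH, and 0.357 to 0.393 in Old and 0.327 to 0.357 in Young hepatocytes. Operated mice thus stood above unoperated ones at both ages. It was 2.39 and 2.57 in Smo (-) PH and 2.67 in Smo (+) PH, and 1.86 and 2.03 in Smo (-) and 1.38 in Smo (+) hepatocytes, so that H2-D1 exceeded H2-K1 in every library of Smo-floxed mice and in none of the wild-type mice. The tables were not tested against each other, and whether this difference lies in the mice or in how each table was counted cannot be told apart. The ratio of H2-Eb1 to H2-Ab1 was 0.864 to 0.924 in Old and 0.314 to 0.382 in Young hepatocytes, and 0.543 to 1.21 in Old PH and 0.205 to 0.244 in Young PH hepatocytes. The age groups overlapped at neither time. In exact two-sided permutation tests of the log2 ratios with 3 against 3 libraries, 0.1 is the smallest p possible, and over the 28 ratio comparisons made it corresponds to 0.175 after Benjamini-Hochberg adjustment, so that none could pass.

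**Figure D5:**
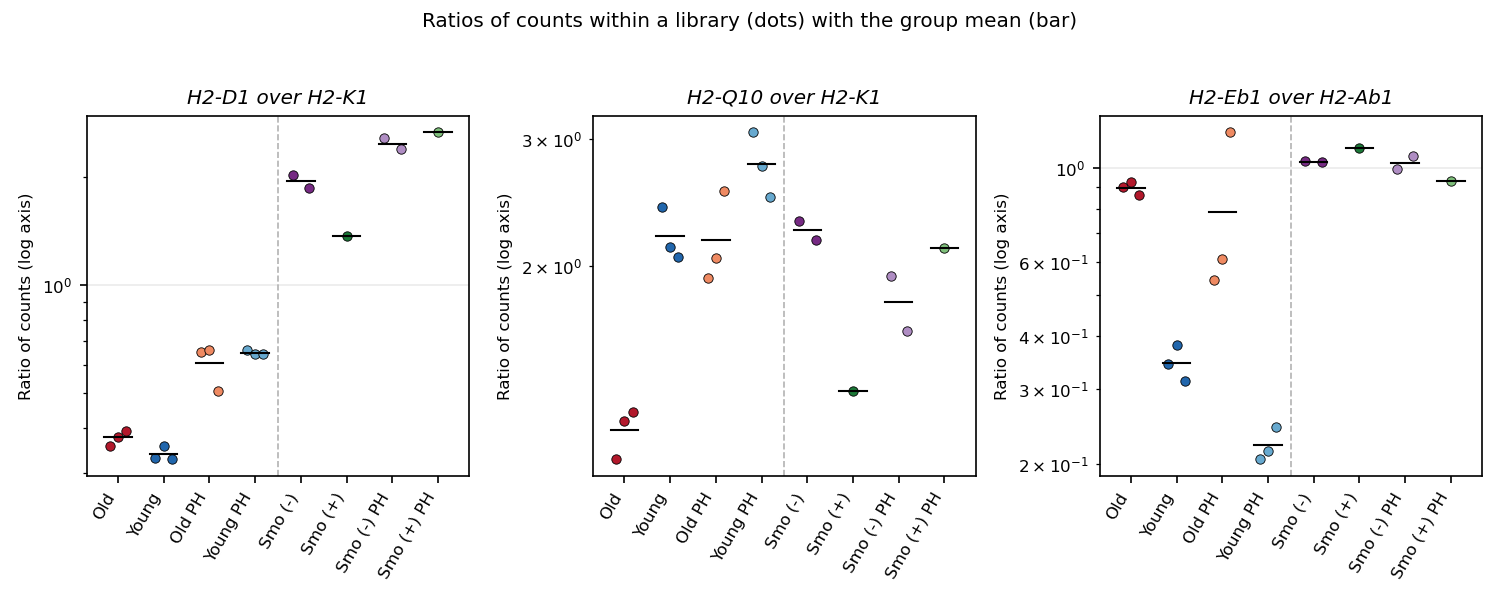
Ratios of counts within a library on a log axis for 3 pairs of members, with 1 dot per library and a bar at the group mean, for the 8 groups. H2-D1 over H2-K1 lies between 0.327 and 0.662 in wild-type mice and between 1.38 and 2.67 in Smo-floxed mice.

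Most listed genes of the machinery that cuts and loads peptides for class I were higher in Old hepatocytes. Of 14 listed genes of class I processing 9 were higher and 2 lower in Old against Young hepatocytes, with a median log2 fold change of 0.89, where 29.3% of all genes were called higher and 33.7% lower. The immunoproteasome subunits Psmb9 (2.27 ± 0.20), Psmb10 (2.25 ± 0.17) and Psmb8 (2.12 ± 0.20) and the proteasome activator Psme2 (1.72 ± 0.15) had the smallest adjusted p values. At 48 h 10 were higher and 1 lower in Old PH against Young PH hepatocytes (29.7% and 32.4% of all genes), with Psme2 (1.67 ± 0.15), Psmb8 (1.85 ± 0.20) and Psmb9 (1.85 ± 0.19) again among the first 4. After PH 7 fell and none rose in Old mice (15.1% and 22.5% of all genes), and 4 fell and 1, Psme3 (0.43 ± 0.13), rose in Young mice, a called share near that of all genes (34.2%). The loading chaperone Tapbp fell by 0.80 ± 0.13 and 0.68 ± 0.13 on the log2 scale in Old and in Young mice. In Smo (-) against Smo (+) hepatocytes 5 were lower and 1 was higher (13.5% and 13.9% of all genes), the peptide transporter genes Tap1 (-0.99 ± 0.19) and Tap2 (-1.05 ± 0.22) among the lower ones.

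Of 8 listed genes of class II processing, 6 were higher and none lower in Old against Young hepatocytes (29.3% and 33.7% of all genes), cathepsin S (Ctss, 2.32 ± 0.38), which trims the invariant chain, among them. Ctss also fell in Old PH against Old hepatocytes (-2.77 ± 0.40), and its response to PH differed with age (-2.72 ± 0.55, adjusted p = 0.0225). It was lower in Smo (-) than in Smo (+) hepatocytes (-2.09 ± 0.21) and higher in Smo (-) PH than in Smo (-) hepatocytes (0.96 ± 0.19), where the class II chains fell. Of the 11 macrophage markers 10 were lower in Old PH than in Old hepatocytes. All 11 were lower in Smo (-) than in Smo (+) and higher in Smo (-) PH than in Smo (-) hepatocytes. The part of macrophages in the values of Ctss was not tested. Of 16 listed regulators 6 were higher and 7 lower in Old against Young hepatocytes and 4 higher and 8 lower in Old PH against Young PH hepatocytes, with medians of -0.25 and -0.29. All genes were split in a similar way, with 29.3% higher and 33.7% lower in Old hepatocytes and 29.7% higher and 32.4% lower in Old PH hepatocytes. Nlrc5, the transactivator of class I genes, was lower in Old than in Young hepatocytes (-1.62 ± 0.18, adjusted p = 4.43e-06) and lower in Old PH than in Young PH hepatocytes (-1.40 ± 0.18), while the class I heavy chains were higher. Rfxank and Rfxap, subunits of the RFX complex that binds the promoters of both classes, went opposite ways in Old against Young hepatocytes (-1.33 ± 0.19 and 1.23 ± 0.15). Rfxap was also higher in Old PH than in Young PH hepatocytes (1.05 ± 0.14). Rfxank fell in Young PH against Young hepatocytes (-0.77 ± 0.18), and its response to PH differed with age (1.10 ± 0.26, adjusted p = 0.0395).

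H2-Ke6, named for its place in the complex, encodes a steroid and fatty acid dehydrogenase of mitochondria and presents no antigen. It had 89.4, 58.1 and 73.2 CPM in Old and 43.7, 33.3 and 38.8 CPM in Young hepatocytes (0.93 ± 0.15, adjusted p = 9.37e-05), and was also higher in Old PH than in Young PH hepatocytes (0.95 ± 0.15). It fell after PH in Old (-0.80 ± 0.15), Young (-0.82 ± 0.15) and Smo (-) mice (-1.22 ± 0.15) and was not called between Smo (-) and Smo (+) hepatocytes (-0.15 ± 0.18). Of its windows of 1 read length 54.5% also occur in the overlapping annotated gene Gm20427, so that its counts are uncertain.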

How the data were processed

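Polyadenylated RNA of isolated hepatocytes was sequenced by the authors as paired 150-base reads, trimmed with Trim Galore, aligned to mm10 with STAR (2.5.0c), handled with SAMtools, freed of duplicates with Picard, and counted with HTSeq. The deposited tables hold counts, unnormalized, of the pairs assigned to each Ensembl gene, in 1 column per library. The annotation release and strand setting are not given in the sources used here, so that overlapping genes on opposite strands cannot be separated. Names of genes in the Smo table are misaligned (1.53% equal the reference), so rows were joined by Ensembl identifier and placed with GENCODE M21 (GRCm38). Rows outside genes stayed out of library sizes.

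Each table was fitted as a whole in R 4.3.3 with edgeR 4.0.16 (quasi-likelihood test, TMM, filterByExpr at its minimum count, 10, and minimum total, 15, group as the only term), which tested 14554 and 13654 genes with 8 and 2 residual degrees of freedom. The threshold for a call was a p of 0.05 after Benjamini-Hochberg adjustment, and errors of fold changes are standard errors. CPM used TMM-scaled library sizes, and RPKM the length of all annotated exons. The script was tested on simulated data. Alternatives were DESeq2 1.42.0, RLE size factors, no low-count filter, removal of mitochondrial genome genes and Malat1, a gene-length correction, the replicate number as a block, and leaving out each library. A fit with Old 1 as the only Old library was added after the data were seen. Members and lists were chosen with earlier results of these data known. All tested members are named, with pathway genes limited to the 4 smallest adjusted p per comparison. The share of windows of 1 read length (150 bases) of a gene's reference transcripts that occur in another gene was computed as a measure of shared reads.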

Additional observations from a re-analysis of the deposited data

Results flagged for a closer look

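H2-DMb1, the beta chain of the peptide exchanger H2-DM, stands out because its response to PH differed between the ages, by -3.31 ± 0.70 on the log2 scale (edgeR, adjusted p = 0.0267 in the test of the difference). It fell by 3.96 ± 0.50 in Old PH against Old hepatocytes, and had a log2 fold change of -0.65 ± 0.48 in Young PH against Young hepatocytes, where it was not called. The counts were 8, 6 and 3 in Old PH, against 40, 48 and 121 in Old hepatocytes, and 9, 17 and 10 in Young PH, against 14, 16 and 19 in Young hepatocytes. All libraries of Old PH and of Young PH thus held at most 17 pairs. Macrophage markers also responded differently with age, 4 of 11 being called lower in the same test, against 0.983% of all genes. The part of macrophages in the value of H2-DMb1 was not tested. With Old 1 as the only Old library the difference was -2.51 (adjusted p = 0.0627).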

How the results depend on the processing

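Calls of single members that were lost or gained with a setting are given beside their results, except those below, and the causes were not tested. DESeq2 called 2 class II members lower in the difference of responses and 2 class I members lower in Smo (-) PH against Smo (-) hepatocytes, and with Old 1 as the only Old library the first of these counts was 0. With single libraries left out, class I members lower were 0 to 1 in Old against Young, 0 to 1 in Old PH against Young PH and 0 to 1 in Smo (-) PH against Smo (-) hepatocytes, class I members higher in the last were 2 to 4, class II members higher in Old PH against Young PH were 1 to 3, and class II members lower in the difference of responses were 0 to 2. In Smo (-) PH against Smo (-), H2-M3 was called without the low-count filter (adjusted p = 0.0373) and without Smo (-) 2 (0.0453), where H2-T24 was called as well (0.0459), and H2-Q4 (0.0368) and H2-T22 (0.0160) were called without Smo (-) 1. In Smo (-) against Smo (+), H2-T22 was called without Smo (-) 1 (0.0348) and H2-T23 without Smo (-) 2 (0.0494). The replicate block changed 1 call, H2-Q10 in Old PH against Old hepatocytes, where class I members lower numbered 4. In wild-type mice, deviations from the group mean of libraries with the same number correlated at r of -0.112 to 0.226 (over 0.1 in 2 of 18 pairs). Libraries with different numbers correlated at r of -0.217 to 0.133 (over 0.1 in 2 of 36 pairs). With so few libraries per group, these values cannot show a pairing or its absence. The gene-length correction moved the median of all genes in Old against Young hepatocytes to 0.07.

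Signs changed only for members that were not called. In Old PH against Old hepatocytes, H2-Q7 had log2 fold changes of -0.0079 (DESeq2), -0.0079 (RLE), -0.0058 (gene length) and -0.0040 (Old 1 alone), and H2-T22 of -0.051 (DESeq2), -0.051 (RLE), -0.025 (no filter), -0.010 (gene length) and -0.24 (Old 1 alone), while H2-M3 (0.079) and H2-T24 (1.70) changed with Old 1 alone. In the difference of responses H2-Ke6 had -0.032 (DESeq2), -0.032 (RLE), -0.016 (no filter) and -0.26 (Old 1 alone), and H2-M3 (0.39), H2-Q1 (0.18) and H2-T24 (2.08) changed with Old 1 alone. With the gene-length correction B2m (0.20) and H2-Ke6 (0.11) changed in Smo (-) against Smo (+), and H2-T22 (-8.4e-05) in Smo (-) PH against Smo (+) PH hepatocytes.
With single libraries left out, the range of the log2 fold change crossed 0 in Old PH against Young PH for H2-DMb1 (-0.59 to 0.069), in Young PH against Young for H2-Q6 (-0.26 to 0.096), H2-Q7 (-0.17 to 0.052), in Old PH against Old for H2-Q1 (-0.12 to 0.69), H2-Q7 (-0.14 to 0.19), H2-T22 (-0.19 to 0.072), in the difference of responses for H2-Ke6 (-0.16 to 0.12), H2-Q1 (-1.12 to 0.075), H2-Q7 (-0.094 to 0.23), H2-T23 (-0.14 to 0.062), in Smo (-) PH against Smo (+) PH for Cd74 (-0.39 to 0.49), H2-Aa (-0.68 to 0.33), H2-Q1 (-0.25 to 0.74), H2-T24 (-0.29 to 0.11), in Smo (-) PH against Smo (-) for Ciita (-0.12 to 0.17), H2-Q1 (-0.16 to 0.82), H2-T24 (-0.34 to 1.56).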

Other observations

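Of 8 listed class I-like genes outside the H2 region, 5 were higher and none lower in Old against Young hepatocytes, a called share near the 63% of all genes (29.3% higher and 33.7% lower). Fcgrt, the heavy chain of the neonatal Fc receptor that recycles IgG and albumin, was higher by 1.14 ± 0.17 on the log2 scale, Hfe, a regulator of iron uptake, by 1.02 ± 0.12, and the lipid-binding Azgp1 by 0.88 ± 0.15 (edgeR, adjusted p between 6.78e-06 and 0.000164). At 48 h 6 were higher and 1 lower in Old PH against Young PH hepatocytes (62.1% of all genes were called), with Cd1d1, which presents lipids to natural killer T cells, higher by 1.23 ± 0.15. After PH 4 of the 8 fell and none rose in Old mice (37.6% of all genes were called), and 4 fell and 1, Ulbp1, rose in Young mice (34.2% of all genes). Fcgrt fell by 1.25 ± 0.17 in Old and 1.20 ± 0.17 in Young mice on the log2 scale. In Smo (-) PH against Smo (-) hepatocytes the ligand gene Ulbp1 (3.53 ± 1.02) and Procr (2.30 ± 0.70) rose while Fcgrt (-0.87 ± 0.22) and Cd1d1 (-0.54 ± 0.18) fell.

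The ratio of B2m to H2-K1 counts, light chain to heavy chain, was 0.795 to 0.853 in Old and 1.40 to 1.83 in Young hepatocytes, and 0.935 to 1.19 in Old PH and 1.62 to 2.37 in Young PH hepatocytes (exact permutation p = 0.1 for each, the smallest possible). H2-DMb2 and H2-Q2, tested in the Smo table alone, had at most 5 and 9 counts in any wild-type library.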
